A study of Mus musculus with 24 samples.

Results

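The Frizzled family comprises the seven-span receptors for Wnt proteins, and all 10 mouse genes named Fzd1 to Fzd10 were taken by symbol from the RNAseq tables of neural progenitor cells (NPCs) and the embryonic stem cells (ESCs) they were made from, 10 of the 21909 symbols listed there. The study asked how the genome is arranged around the nucleolus in ESCs and NPCs. RNAseq was done on 3 ESC and 3 NPC samples, numbered as replicates 1 to 3 in each cell type. Nucleolus-associated domains (NADs), the regions found near the nucleolus by Nucleolar-DamID, were listed once for each cell type from 2 samples with H2B-Dam and 2 with H2B-Dam-NoLS, the ratio of the second to the first giving the contact with the nucleolus. These samples were E14 lines with either transgene on 1 allele of Rosa26, a fusion of histone H2B and the Dam methylase without or with a nucleolar localization signal, switched on by doxycycline (100 ng/ml) together with Shield1 (1 µM), which keeps the fusion stable, over 15 h. By the labels their cells were otherwise grown as those for RNAseq, and the NPCs were taken apart and plated on gelatin on day 8 before this induction. Both cell types came from the mouse ESC line E14, with no genetic change named for the RNAseq samples. The ESCs grew without feeder cells on gelatin in serum-free 2i medium with 1000 U/ml LIF, 3 µM of the GSK3β inhibitor CHIR99021 and 1 µM of the MEK inhibitor PD0325901. The label opens the description of the medium as a choice and names no other medium. The NPCs were made from E14 ESCs as embryoid bodies in suspension over 8 days in medium with 10% fetal calf serum, with 2 µM retinoic acid during the last 4 days. The comparison therefore joins the cell type with the medium, and the effects of the cell type, of GSK3 inhibition in the ESCs and of retinoic acid in the NPCs cannot be told apart.

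Frizzled receptors bind Wnt proteins through a cysteine-rich domain outside the cell. Together with the co-receptors Lrp5 and Lrp6 they recruit Dishevelled and stop the destruction of beta-catenin, which then acts with TCF/LEF factors on target genes; with other partners they act in planar cell polarity without beta-catenin. GSK3 is a kinase of the complex that destroys beta-catenin, so its inhibitor in 2i medium activates the pathway below the receptors. By sequence the family falls into the groups Fzd1, Fzd2 and Fzd7, Fzd5 and Fzd8, Fzd4, Fzd9 and Fzd10, and Fzd3 and Fzd6. In the developing nervous system Wnt signals take part in patterning, in the growth of progenitors and in the guidance of axons.

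The values were RPKM, reads scaled by the length of the gene and by the reads of the sample, computed by the authors for each sample on its own. Low values fell on whole multiples of a single read, and the 10 Frizzled genes gave whole reads in all 6 samples when the length was that of the gene with its introns. This held for 6021 (95.8%) of 6288 genes checked, against 151 (2.4%) with the exon bases as length and the same step, at a tolerance of 0.05 reads. That step was estimated with the spans as lengths, so these shares are not an even contrast. The genes checked had a span at least 1.5 times the exon bases and 1 to 300 reads in their highest sample. For the 6 members whose span equals their exon bases, whole reads cannot tell these lengths apart. The same steps gave about 34100000, 33700000 and 30800000 reads over genes in the 3 ESC samples and 30200000, 27300000 and 32300000 in the 3 NPC samples. RPKM thus understated the level per length of mature RNA wherever introns are long, which concerned Fzd6, whose span was 6.67 times its exon bases, and Fzd3 (5.47 times). For Fzd4 the ratio was 1.31, for Fzd5 1.04 and for the other 6 members, with 1 exon each, it was 1. The methods of the study speak of coverage of exons, and whether reads in introns were counted could not be seen from the values. Differences of a gene between samples do not depend on its length, apart from the constant of 1 added before taking logarithms.

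ESC replicate 3 stood apart from the other ESC samples. Across genes, its log2(RPKM + 1) correlated at r = 0.979 with ESC replicate 1 and r = 0.980 with replicate 2, while those correlated at r = 0.999. Its RPKM values summed to 139988, against 104016 and 105859. Over 6573 genes, the middle of the distribution of its log2 ratio to the mean of the other samples ran from -0.54 to 0.44 (quartiles), against -0.07 to 0.08 between replicates 2 and 1, and the 77 ribosomal protein genes had a median log2 ratio of 1.01. Of the 10 Frizzled genes, 8 were lower in ESC replicate 3 than in both other ESC samples, as were 44.7% of 18360 genes above 0 in any sample, and the ratios of means, sums and shares of the Frizzled genes are given with and without it.

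The labelled cell types were set against their markers. In a fit without a filter on low values, where 39.5% of all 18360 genes above 0 in any sample were called higher in NPCs and 22.9% lower, all 9 pluripotency markers fell. Their summed RPKM was 1876, 1862 and 3732 in the ESC samples and 9.45, 10.8 and 12.3 in the NPC samples. The most abundant was Dppa5a (1911 ± 1057 in ESCs, 0.198 ± 0.135 in NPCs, mean ± SD, n = 3 each). Of 9 neural progenitor markers, 8 rose in that fit, and the other, Vim, the most abundant, was at 39.5 ± 5.59 RPKM in ESCs and 45.6 ± 2.76 in NPCs with overlapping values (log2 difference 0.21, limma adjusted p = 0.1926). In the fit with a filter (1 RPKM or more in at least 3 of the 6 samples) Vim was not called either (adjusted p = 0.2041), but it was without ESC replicate 3 (0.32, adjusted p = 0.0021), with TPM (0.64, adjusted p = 7.84e-04) and with quantile normalization (0.69, adjusted p = 2.99e-04). The summed RPKM of the neural progenitor markers was 41.9, 43.4 and 51.5 in ESCs and 93.6, 101 and 105 in NPCs. Hes5, a Notch target of neural progenitors, was listed at 0 in 3 of 3 ESC samples and had a mean of 3.19 RPKM in NPCs. Of 11 mesoderm and endoderm markers, 9 rose without a filter and 1, the mesoderm factor T (0.959 and 0.0123 RPKM), fell. The summed RPKM of these 11 was 1.46, 1.48 and 1.29 in ESCs and 40.6, 48.6 and 47.6 in NPCs, led by Col1a1 (0.0355 ± 0.00399 and 23.7 ± 3.94). Of 8 neuron markers, 6 rose and 2 fell without a filter. They summed to 11.2, 12.3 and 14.5 in ESCs and 7.33, 5.94 and 7.09 in NPCs, led by Tubb3 (7.28 ± 0.763 and 4.15 ± 0.508), whose call was lost with TPM (limma adjusted p = 0.0584). Of 5 neural crest markers, 3 rose and 2 fell. They summed to 8.28, 8.78 and 7.62 in ESCs and 2.49, 2.25 and 2.23 in NPCs, led by Foxd3 (7.65 ± 0.491 and 0.83 ± 0.0359). No marker was listed at 0 in all 6 samples. The NPC samples thus held RNA of mesoderm and endoderm genes beside that of neural progenitor genes, and its part in the Frizzled values was not tested.

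Most Frizzled genes were higher in NPCs, while the pair with the highest level in ESCs was lower. Genes were tested with limma on log2(RPKM + 1) if they passed that filter, which 7835 genes did, and called at an adjusted p under 0.05. Of the 10 Frizzled genes, 8 passed this filter, and of these 6 (Fzd1, Fzd2, Fzd3, Fzd4, Fzd7 and Fzd8) were called higher in NPCs and 2 (Fzd5 and Fzd10) lower. Over all genes tested, 36.9% were called higher and 33.3% lower. Fzd1, Fzd3, Fzd4 and Fzd5 reached 1 RPKM only in the 3 samples of the group where they were high, so a difference was built into their passing. In the fit without a filter, 7 of the 10 were called higher, where 39.5% of all genes were, 2 lower, where 22.9% were, and Fzd9 was not called. The ESC and NPC values did not overlap for 9 of the 10 genes, as for 72.9% of those 18360 genes. The median log2 difference of the 10 genes in that fit was 1.81, and that of all genes 0.01. Fewer cells of a type and less RNA per cell cannot be told apart in such bulk samples. Rescaling each sample to the same sum (TPM) moved the median log2 difference of the tested genes from 0.02 to 0.45 and the share of called genes that were higher from 52.6% to 69%. Relative to that median, Fzd5 (-4.09) and Fzd10 (-2.31) stayed lower and the other 6 tested members stayed higher, between 2.53 (Fzd8) and 6.73 (Fzd1).

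Fzd1, Fzd2 and Fzd7, closely related receptors that can signal through beta-catenin, all rose. Fzd7, which binds several Wnt proteins and is known from human pluripotent stem cells, was at 7.44, 8.39 and 5.34 RPKM in the ESC samples and 68, 65.4 and 64.4 RPKM in the NPC samples. Every NPC sample lay far above every ESC sample, and ESC replicate 3 was the lowest of all. The log2 difference was 3.07 (SE 0.16, limma adjusted p = 5.48e-06), the ratio of means 9.34, and 8.33 without ESC replicate 3. Fzd2 was at 2.08, 2.19 and 2.11 RPKM in ESCs and 31.6, 36 and 36.7 RPKM in NPCs. The ESC values were close together, ESC replicate 3 among them, and all 3 NPC values were higher. Its log2 difference was 3.51 (SE 0.09, limma adjusted p = 2.74e-07) and its ratio of means 16.4, and 16.3 without ESC replicate 3.

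Fzd1, whose loss in mice is partly covered by Fzd2 and Fzd7, was at 0.056, 0.0777 and 0.031 RPKM in ESCs, and at 17.6, 18.3 and 19.3 RPKM in NPCs. The ESC values corresponded to 8, 11 and 4 reads, and the NPC values to 2222, 2096 and 2612 reads. The gene was thus near the floor of detection in every ESC sample and among the higher members in every NPC sample. The log2 difference was 4.20 in the fit without a filter (SE 0.05, limma adjusted p = 1.51e-06). The constant of 1 holds it down, since the ratio of means was 335. That ratio rests on few ESC reads and was 275 without ESC replicate 3.

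Fzd5 and Fzd8 form a further group and went in opposite directions. Fzd5, a receptor needed for blood vessels of the yolk sac and for eye development, was at 23, 24.3 and 8.83 RPKM in ESCs and at 0.853, 0.984 and 0.981 RPKM in NPCs. Every ESC sample was above every NPC sample, and ESC replicate 3 was far below the other ESC samples. Between ESC replicate 3 and the mean of the other ESC samples its log2 ratio was -1.42, and 3.56% of genes had a lower one. The log2 difference between NPCs and ESCs was -3.23 in the fit without a filter (SE 0.38, limma adjusted p = 8.95e-04). The ESC mean was 19.9 times the NPC mean. Without ESC replicate 3 the log2 difference was -3.67 (SE 0.05 in the fit with the filter) and the ratio 25.2. Fzd8, a receptor of the early forebrain and of the beta-catenin branch, was at 1.43, 1.48 and 1.1 RPKM in ESCs and 6.92, 9.08 and 9.48 RPKM in NPCs. All NPC samples were above all ESC samples, NPC replicate 1 being the lowest of them. Its log2 difference was 2.02 (SE 0.13, limma adjusted p = 1.95e-05) and its ratio of means 6.36; without ESC replicate 3 these were 1.94 and 5.83.

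Fzd4, Fzd9 and Fzd10 showed no common course. Fzd4, the receptor for Norrin and Wnt proteins in retinal blood vessels, was at 0.629, 0.648 and 0.329 RPKM in ESCs and 33.7, 34.6 and 35.3 RPKM in NPCs. The NPC samples were close together and all far above the ESC samples, of which replicate 3 was the lowest. The log2 difference was 4.54 in the fit without a filter (SE 0.1, limma adjusted p = 2.83e-06), and the ratio of means 64.5. Without ESC replicate 3 these were 4.44 and 54. Which member rose most depended on the scale: with the constant of 1 the log2 difference of Fzd4 was above that of Fzd1, with a constant of 0.1 it was below it (5.81 against 6.91), as with TPM (6.19 against 7.18), and by the ratio of means Fzd1 (335) and Fzd3 (98.1) were above Fzd4, also without ESC replicate 3 (275 and 83.4). Fzd10, a receptor found in the dorsal neural tube of the embryo, was at 23.8, 26.5 and 12 RPKM in ESCs and 3.39, 4.04 and 4.53 RPKM in NPCs. It was lower in all 3 NPC samples than in any ESC sample, with ESC replicate 3 again the nearest to them. The log2 difference was -2.06 (SE 0.29, limma adjusted p = 7.96e-04) and the ESC mean was 5.21 times the NPC mean. Without ESC replicate 3 these were -2.40 (SE 0.1, adjusted p = 4.09e-07) and 6.31. Unlike Fzd5, Fzd10 stayed above 1 RPKM in every NPC sample.

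Fzd9, a receptor known from hippocampal development and bone formation, was the member whose groups overlapped, through ESC replicate 3. It was at 0.295, 0.543 and 0.879 RPKM in ESCs and 0.781, 0.544 and 0.851 RPKM in NPCs, from 23, 42 and 62 reads and 54, 34 and 63 reads. The lowest and the highest of the 6 values were both ESC samples, and ESC replicate 3, the lowest ESC sample for most members, was the highest here. In the fit without a filter the log2 difference was 0.15 with a 95% interval from -0.24 to 0.53 (limma adjusted p = 0.4436). The ratio of means was 1.27, and a change of either sign within that interval is not excluded. Without ESC replicate 3 the remaining ESC values lay below all NPC values, the nearest being 0.5432 and 0.5441 RPKM, and the ratio was 1.73. The log2 difference was then 0.28 and still not called (limma adjusted p = 0.0887), in a fit added after seeing the data. Leaving out 1 of the 6 samples at a time gave 0.01 to 0.28, with none called.

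Fzd3 and Fzd6 act mainly in planar cell polarity, Fzd3 in axon guidance and neural tube closure and Fzd6 in the orientation of hairs. Fzd3 was at 0.0273, 0.0233 and 0.0139 RPKM in ESCs (65, 55 and 30 reads) and 2.11, 2.03 and 2.18 RPKM in NPCs (4456, 3879 and 4939 reads). It was low in every ESC sample and far higher in every NPC sample. The log2 difference was 1.61 in the fit without a filter (SE 0.04, limma adjusted p = 3.43e-06), and the ratio of means 98.1. Without ESC replicate 3 these were 1.60 and 83.4. Fzd6 was at 0.174, 0.192 and 0.102 RPKM in ESCs (191, 208 and 101 reads) and 0.725, 0.65 and 0.57 RPKM in NPCs (703, 570 and 592 reads). It stood below 1 RPKM in all 6 samples, with every NPC sample above every ESC sample. In the fit without a filter its log2 difference was 0.51 (SE 0.05, limma adjusted p = 3.46e-04) and its ratio of means 4.15; without ESC replicate 3 these were 0.48 (adjusted p = 6.66e-04) and 3.54. Per exon length, a scale chosen after the values were seen, the NPC means became 11.5 ± 0.416 for Fzd3 and 4.33 ± 0.518 for Fzd6 (SD, n = 3), with log2 differences of 3.49 and 1.39.

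**Figure D1:**
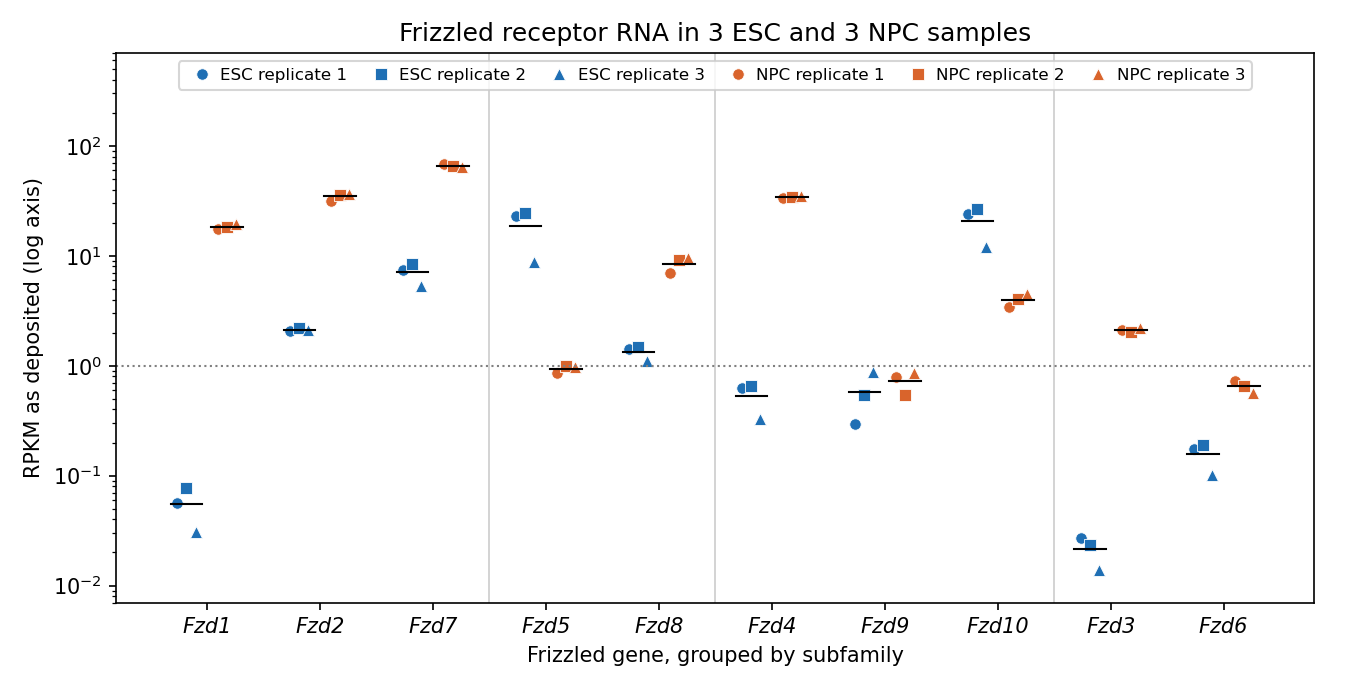
RPKM of each Frizzled gene (log axis) in each ESC sample (blue) and NPC sample (orange), with horizontal bars at the group means and a dotted line at 1 RPKM. The NPC points lie above the ESC points for 7 genes and below them for Fzd5 and Fzd10, and they overlap for Fzd9.

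**Figure D2:**
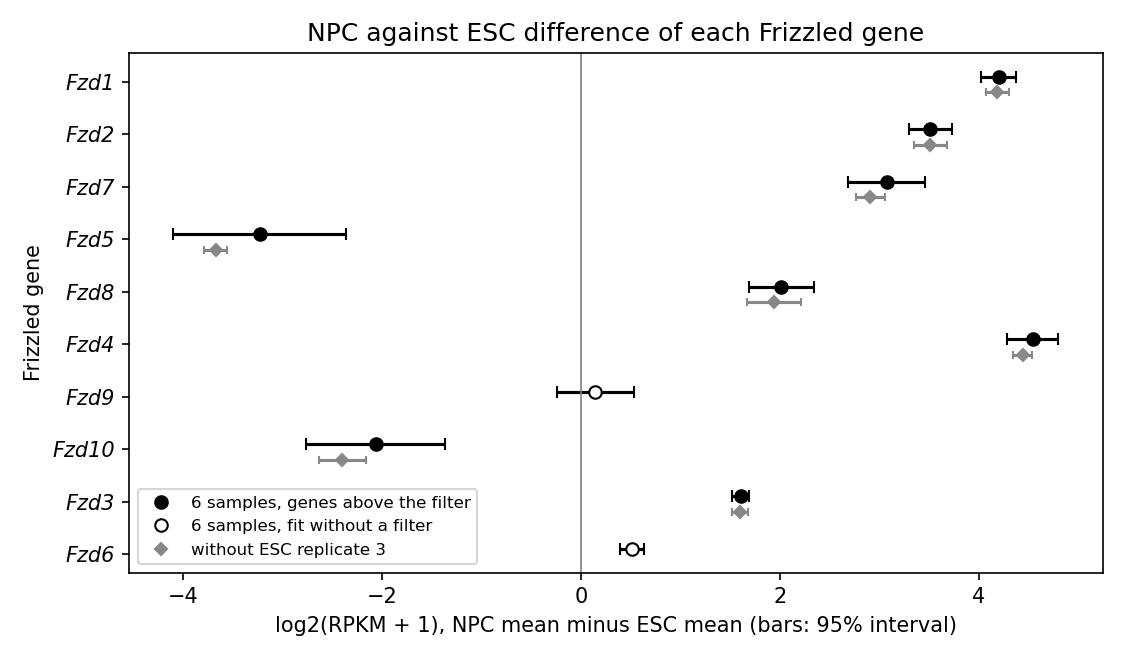
Difference of mean log2(RPKM + 1) between NPCs and ESCs with its 95% interval from limma, with all 6 samples for each of the 10 Frizzled genes (black; open for the 2 below the filter) and without ESC replicate 3 for the 8 above it (grey). Fzd5 and Fzd10 lie below 0, the interval of Fzd9 includes 0, and the intervals of Fzd5 and Fzd10 are narrower without ESC replicate 3.

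In the order of mean RPKM, Fzd10 (20.8 ± 7.7) and Fzd5 (18.7 ± 8.59, SD, n = 3) led in ESCs, with overlapping values that were higher for Fzd10 in each sample. Fzd7 (7.06 ± 1.56), Fzd2 (2.12 ± 0.0556) and Fzd8 (1.34 ± 0.208) followed, each separate from the next. Fzd9 and Fzd4 overlapped with means of 0.572 and 0.535, and Fzd6, Fzd1 and Fzd3 closed the order without overlap. In NPCs, Fzd7 was highest (65.9 ± 1.85), above Fzd2 (34.7 ± 2.75) and Fzd4 (34.5 ± 0.762), which were not separated. Below them came Fzd1 (18.4 ± 0.857), Fzd8 (8.49 ± 1.38), Fzd10 (3.99 ± 0.571), Fzd3 (2.11 ± 0.076) and Fzd5 (0.94 ± 0.0749), each separate from the next, and then Fzd9 and Fzd6, whose values overlapped. Per exon length, Fzd4 came to rank 2, Fzd3 to rank 5 and Fzd6 to rank 7 of the 10 in NPCs, while in ESCs Fzd6 came to rank 6, Fzd4 to rank 7 ahead of Fzd9 and Fzd3 to rank 9 ahead of Fzd1. Fzd10 and Fzd5 kept the first places in ESCs on that scale and Fzd7 that in NPCs.

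The summed RPKM of the 10 genes was 58.9, 64.4 and 30.8 in the ESC samples and 166, 172 and 174 in the NPC samples. All NPC sums were above all ESC sums, with ESC replicate 3 the lowest. The ratio of the mean sums was 3.32, and 2.77 without ESC replicate 3. In ESCs, Fzd5 and Fzd10 together made up 75.4 ± 6.58% of the sum, and in NPCs 2.88 ± 0.303% (SD, n = 3). Fzd2, Fzd4 and Fzd7 together made up 20 ± 4.61% in ESCs and 79.3 ± 1.11% in NPCs. Fzd7 alone gave 14.3 ± 2.63% in ESCs and 38.7 ± 2.1% in NPCs. Without ESC replicate 3 these ESC shares were 79.2%, 17.3% and 12.8%. The share of Fzd5 was 39% and 37.8% in ESC replicates 1 and 2 and 28.7% in replicate 3, while that of Fzd10 was 40.4%, 41.2% and 39.1%. The leading receptor RNAs thus differed between the cell types, and the lower sum of ESC replicate 3 did not change which members led.

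**Figure D3:**
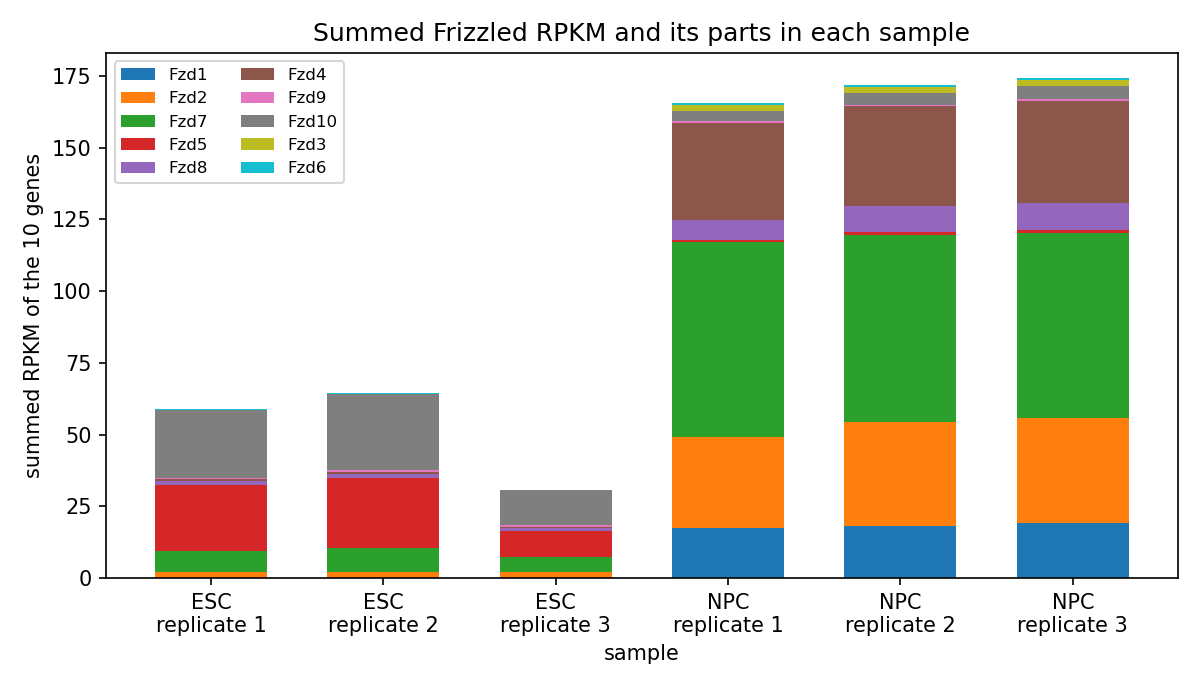
Summed RPKM of the 10 Frizzled genes in each sample (linear axis from 0), split by gene. Fzd5 (red) and Fzd10 (grey) fill most of the ESC bars and Fzd2, Fzd4 and Fzd7 most of the NPC bars; the bar of ESC replicate 3 is the lowest at 30.8.

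The genes most like the leading members were named by the root mean square difference of log2(RPKM + 1) over the 6 samples. For Fzd10, highest in ESCs, they were Slc2a3 (0.33), Sod2 (0.42) and Rabggta (0.42), with ESC and NPC means of 21.4 and 5.47, 22.9 and 4.07, and 17.6 and 4.33 RPKM. For Fzd7, highest in NPCs, they were Cd24a (0.27), Marcks (0.38) and Cfl2 (0.39), with means of 7.99 and 62.4, 5.51 and 78.6, and 8.83 and 49.8 RPKM. Slc2a3 is a glucose transporter, Sod2 the superoxide dismutase of mitochondria, and Cd24a a surface protein of many immature cells.

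Other genes of the pathway were counted from 9 lists in the fit without a filter, where 39.5% of all genes were called higher and 22.9% lower. The filter is left aside for these counts because many of the listed genes reached 1 RPKM in 1 cell type alone, which builds a difference into their passing; the named genes were chosen among those called with the filter, ranked by the difference of log2(RPKM + 1), and in some lists other genes come first by the ratio of means. Without ESC replicate 3, a fit added after seeing the data, 42.3% of all genes were called higher and 30.3% lower. Of 11 co-receptors and further Wnt receptors, 8 rose and 1 fell (9 and 1 without ESC replicate 3), and the largest log2 rises with the filter were those of Adgra2 (0.00766 ± 0.00371 RPKM in ESCs, 6.08 ± 0.654 in NPCs), a co-receptor for Wnt7 proteins, and Gpc3 (0.181 ± 0.0155 and 3.8 ± 0.0286), a glypican of the cell surface. In the list on Frizzled turnover, which holds the ubiquitin ligases that remove Frizzled receptors from the surface, the R-spondins and Lgr receptors that restrain them, and the deubiquitinase Usp8, 9 of 10 genes rose and limma called none lower (0 at an unadjusted p under 0.05). Usp8, the other gene, had 2.39, 2.36 and 0.815 RPKM in ESCs and 1.91, 1.94 and 1.91 in NPCs. It was not called with all samples (log2 difference 0.09, limma adjusted p = 0.7873) and was called lower without ESC replicate 3 (-0.21, adjusted p = 8.21e-04). Of the 10 genes, 7 rose without NPC replicate 1 and 8 without NPC replicate 2 or 3. Those called with the filter were Rspo1 (0.0331 ± 0.00134 and 2.25 ± 0.177), a secreted agonist, and Lgr4 (0.739 ± 0.199 and 1.3 ± 0.063), a receptor for it, whose call was lost with quantile normalization (log2 difference 0.02, limma adjusted p = 0.7418). The median log2 difference without a filter was 0.38 over the co-receptors and 0.16 over the turnover genes, beside 0.01 over all genes.

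Of 19 Wnt ligands, 17 rose and limma called none lower (1 at an unadjusted p under 0.05), where 39.5% and 22.9% of all genes were called. Leaving out 1 sample gave 16 or 17 higher, and without NPC replicate 1 Wnt8a, at 0.0218 RPKM or less in all 6 samples, was called lower (log2 difference -0.02, limma adjusted p = 0.0287). Of the ligands, 14 of the 19 stayed below the filter. The largest log2 rises among the other 5 were those of Wnt4 (0.00271 ± 0.0035 and 6.16 ± 0.464) and Wnt11 (0.0251 ± 0.00501 and 3.54 ± 0.487). The summed RPKM of the ligands was 0.255, 0.261 and 0.234 in ESCs and 17.2, 18.2 and 18.3 in NPCs. Of 16 Wnt antagonists and their partners 9 rose and 2 fell, and Cer1 was listed at 0 in all 6 samples. The largest log2 rises with the filter were those of Sfrp2 (0.0956 ± 0.0192 and 7.13 ± 0.362) and Shisa3 (0.0032 ± 0.000977 and 3.78 ± 0.479). Of 4 genes of Wnt secretion and modification Wls (0.143 ± 0.00275 and 1.94 ± 0.122) and Porcn (0.296 ± 0.0365 and 1.35 ± 0.0398) rose while Notum (12.4 ± 1.72 and 0.195 ± 0.0198) fell.

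Inside the cell, 9 of 16 genes of Dishevelled and the destruction complex rose without a filter and limma called none lower (0 at an unadjusted p under 0.05), beside 39.5% and 22.9% of all genes. Without ESC replicate 3, 10 rose and 2 fell, beside 42.3% and 30.3%, the falling ones being Axin2 (log2 difference -0.85, limma adjusted p = 4.31e-05) and Axin1 (-0.20, adjusted p = 0.0031), both scaffolds of the complex. With all samples these were -0.57 (adjusted p = 0.0887) and -0.14 (0.1579). With the filter both were also called lower with median centring (adjusted p = 0.0208 and 0.0098) and quantile normalization (0.0068 and 9.70e-04), and Axin2 with a replicate block (0.0402), while with TPM neither was and Axin1 had a log2 difference of 0.20 (adjusted p = 0.4328). Without NPC replicate 1, 2 or 3, 8 of the 16 rose. The largest log2 rises with the filter were those of Csnk1e (2.32 ± 0.315 and 6.96 ± 0.215) and Dvl3 (2.37 ± 1.51 and 5.68 ± 0.41), a Dishevelled protein. The call of Dvl3 (log2 difference 1.11, limma adjusted p = 0.0339) was lost in 5 settings, among them the fits without a filter (adjusted p = 0.0561) and without NPC replicate 1 (adjusted p = 0.0833), 2 (0.0902) or 3 (0.0894), and its ESC values (3.06, 3.42 and 0.638 RPKM) were lowest in ESC replicate 3. Without that sample its log2 difference was 0.66 (limma adjusted p = 4.76e-05), below those of Ctnnb1 (0.81) and Dvl1 (0.80). Of 11 planar cell polarity genes 5 rose and 1 fell without a filter, with 7 and 1 without ESC replicate 3 and 4 and 1 without NPC replicate 1; with the filter Celsr2 (0.231 ± 0.0929 and 5.24 ± 0.874) rose and Vangl1 (2.3 ± 0.101 and 1.02 ± 0.0468) fell. Of 12 TCF/LEF factors and partners 8 rose and 4 fell without a filter (3 or 4 fell with 1 sample left out); with it the largest log2 rises were those of Bcl9l (0.795 ± 0.263 and 4.21 ± 0.0932) and Pygo1 (0.0557 ± 0.00738 and 1.81 ± 0.105), and Tcf7 (2.88 ± 0.457 and 1.07 ± 0.0689) and Pygo2 (24.4 ± 2.05 and 19 ± 0.219) fell. Pygo2 was not called with TPM, where its log2 difference was 0.06, nor with quantile normalization (-0.04) or a replicate block (limma adjusted p = 0.0628), nor without NPC replicate 1, 2 or 3 (limma adjusted p = 0.0566, 0.0788 and 0.068). Of 13 widely used beta-catenin target genes, 5 rose and 7 fell without a filter (5 and 8 without ESC replicate 3, Axin2 being listed here too, and 4 and 6 without NPC replicate 1, 2 or 3), with the largest log2 falls among genes past the filter in Notum, an enzyme that inactivates Wnt proteins, and Sp5 (9.46 ± 0.774 and 0.714 ± 0.119). The 5 that rose all stayed below the filter, so the targets named by this rule show falls only. The summed RPKM of the targets was 47.6, 52.1 and 42 in ESCs and 13.1, 13.6 and 14 in NPCs. Their median log2 difference was -0.57, beside 0.01 over all genes.

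Promoter windows on GRCm38.p6, 250 bases before to 50 after the RefSeq start, were at hand for 6 of the 10 members (Fzd1, Fzd4, Fzd5, Fzd7, Fzd9 and Fzd10). Fzd2, Fzd3, Fzd6 and Fzd8 had no entry. Motifs were searched on both strands. A TCF/LEF core, spelled CTTTGAA or CTTTGAT or CTTTGTA or CTTTGTT, was in 1 of the 6 windows, that of Fzd7, and in 16.9% of all 32851 windows. The single motif of retinoic acid receptors, spelled AGGTCA or AGTTCA or GGGTCA or GGTTCA, was in those of Fzd5 (2 matches) and Fzd4 (1 match), and in 43.7% of all windows. Direct repeats of it with 5 or 2 bases between were in none of the 6, and in 0.0974% and 0.268% of all windows. The windows held 54% (Fzd1), 66.7% (Fzd7), 72.7% (Fzd4), 75.7% (Fzd5), 77.7% (Fzd10) and 78% (Fzd9) G and C, against a median of 52.7%, and Fzd1 alone was close to that median. The bases upstream of Fzd7, Fzd4 and Fzd1 are shown as those of rising members with a TCF/LEF core, with a motif of retinoic acid receptors and with neither match, limited to the stretch outside annotated genes. Capitals mark the match, found on the opposite strand, at bases -130 to -124 from the RefSeq start of Fzd7 and -124 to -119 from that of Fzd4. The stretches are chr1:59481897-59482146 (plus strand), chr7:89404223-89404354 (plus) and chr5:4758217-4758466 (minus), each written 5′ to 3′ on the strand of its gene.
Fzd7: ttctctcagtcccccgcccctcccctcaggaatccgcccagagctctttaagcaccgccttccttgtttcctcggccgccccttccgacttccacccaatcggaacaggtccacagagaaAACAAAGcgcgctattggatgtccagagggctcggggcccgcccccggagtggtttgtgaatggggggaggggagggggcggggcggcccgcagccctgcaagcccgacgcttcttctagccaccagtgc
Fzd4: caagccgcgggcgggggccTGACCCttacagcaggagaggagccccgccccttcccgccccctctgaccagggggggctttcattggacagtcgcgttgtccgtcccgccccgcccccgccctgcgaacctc
Fzd1: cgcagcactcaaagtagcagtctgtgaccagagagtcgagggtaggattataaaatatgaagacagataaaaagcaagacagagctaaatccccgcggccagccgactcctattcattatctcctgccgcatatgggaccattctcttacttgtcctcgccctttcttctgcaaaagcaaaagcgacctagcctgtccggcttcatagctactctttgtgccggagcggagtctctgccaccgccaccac

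Positions are given on GRCm38 (mm10) from GENCODE M21, whose starts can differ from the RefSeq starts of the promoter windows. By these positions the window of Fzd10 lay wholly inside the gene and that of Fzd9 mostly. The windows of Fzd1 and Fzd7 lay wholly before the gene. On chromosome 5 lie Fzd1 (chr5:4753839-4758035, minus strand), Fzd10 (chr5:128600844-128604093, plus) and Fzd9 (chr5:135248938-135251230, minus), and on chromosome 1 Fzd7 (chr1:59482424-59486955, plus) and Fzd5 (chr1:64730558-64737751, minus). Fzd4 is at chr7:89404355-89413134 (plus), Fzd2 at chr11:102604396-102608058 (plus), Fzd3 at chr14:65192449-65262463 (minus), Fzd6 at chr15:39006034-39038188 (plus) and Fzd8 at chr18:9212163-9218136 (plus). For Fzd8 the reads were whole with the shorter span of RefSeq, 3346 bases. Fzd5 shares 1512 bases with Gm38058 and Fzd6 shares 152 bases with Gm26704, both on the opposite strand, and Fzd3 holds Gm9086 on the opposite strand and Gm27263 on its own. The kit named by the labels does not mark strand and the one in the methods does, so reads of these partners cannot be told apart from those of the receptors. Fzd4 starts 0.133 kb from Tmem135, which runs the other way and was at 0.124 RPKM in ESCs and 0.167 RPKM in NPCs. On its other side Prss23, on the opposite strand 94.6 kb away, was at 0.00102 RPKM in ESCs and 0.845 in NPCs.

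None of the 10 gene bodies overlapped a NAD of the ESC list, where 27.1% of 21402 genes with a position did, and 2 overlapped a NAD of the NPC list, where 21.6% did. These were Fzd3, inside chr14:64900159-65299758, a NAD whose score of 0.0183 was among the lowest of the NPC list (0.553% of its NADs had a lower one), and Fzd8, inside chr18:9099976-9500077 with a score of 0.0448, above the median of 0.0413. The scores are on the authors' scale and have no replicate values. The NADs were called by the authors in steps of 100 kb, and 98.7% of the edges of the ESC list and 98.8% of those of the NPC list lay within 2 kb of a multiple of it. A distance under 100 kb between a gene and an edge therefore does not tell inside from outside. This holds for Fzd2, Fzd4, Fzd5, Fzd6 and Fzd8 in ESCs and for Fzd4 and Fzd6 in NPCs, and Fzd3 ended less than 100 kb from an edge of its NPC NAD. Both genes were higher in NPCs, with start sites that also lay inside the NADs. In ESCs their nearest NADs were 193 kb (Fzd3) and 82 kb (Fzd8) away. Fzd4 had its nearest NADs 5.68 kb away in ESCs and 4.21 kb in NPCs, and Fzd2 was 4.37 kb from a NAD in ESCs and 1005 kb from one in NPCs. Fzd5 was 30.7 kb from a NAD in ESCs and 129 kb in NPCs. Fzd1, Fzd6 and Fzd7 were 242, 61.3 and 114 kb from the nearest NAD in ESCs and 242, 62 and 114 kb in NPCs. Fzd9 and Fzd10 were farthest, at 1148 and 1096 kb in ESCs and 2749 and 3795 kb in NPCs.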

How the data were processed

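RNAseq was analysed for 3 ESC and 3 NPC samples, grouped by their labels. Per the labels and methods, libraries were polyA-enriched and read from a single end, though the methods also name paired ends as an alternative. The authors removed ribosomal reads with SortMeRNA, trimmed with Trimmomatic, aligned with STAR to mm10 and computed the coverage of exons with a pipeline of their own. The labels also name Bowtie2 2.3.4.3 and Subread 1.4.6-p4 for these samples, without a step for Subread. The deposited tables held RPKM, computed by the authors for each sample on its own, so ESC and NPC values were compared as deposited. Of 21909 symbols on 22064 lines, 153 stood on more than 1 line (Fzd6 on 2 identical ones), and the line with the highest mean was used. The annotation behind the counts is not given in the sources used here. The deposited NAD lists held a score by the authors on their own scale and no replicates; the Nucleolar-DamID tracks were not used here. Reads behind the NADs were aligned with Bowtie2 2.3.4.3.

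Genes at 1 RPKM or more in at least 3 of 6 samples were fitted as log2(RPKM + 1) with limma 3.58.1 in R 4.3.3. The fit used eBayes with trend, two-sided tests and Benjamini-Hochberg over all genes fitted. Its check on simulated data drew noise from the spread of the NPC samples, which leaves out the wider spread of ESC replicate 3. Values were read with Python 3.11.15, numpy 2.4.6 and pandas 2.3.3 and drawn with matplotlib 3.10.9. Depth was about 27300000 to 34100000 reads over genes per sample. At that depth the lowest read count of a Frizzled gene was 4, that of Fzd1 in ESC replicate 3. The 10 Frizzled genes were named in full; from each pathway list up to 2 called genes that rose most and 2 that fell most were named, from each marker list the most abundant one, and Hes5, T, Usp8, Axin1, Axin2 and Wnt8a after their values were seen. Members and lists were chosen with earlier results of these data known. Alternatives were other pseudocounts (0.1 and 0.5), filters, TPM, median centring, quantile normalization, no trend, a replicate block, leaving out each sample, and other NAD rules. Scaling by exon length and leaving out samples in the fit without a filter were added after seeing the data. Protein sequences were not used here.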

Additional observations from a re-analysis of the deposited data

How the results depend on the processing

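The 8 tested Frizzled genes kept their direction and an adjusted p under 0.05 in all 17 other settings (136 values), which for Fzd1, Fzd3, Fzd4 and Fzd5 is no support, as they passed the filter through the group where they were high. The highest were 0.0028 for Fzd5, without NPC replicate 1, and 0.0077 for Fzd10, with TPM. Of 491 values of 29 named pathway and marker genes past the filter, 467 kept their side of the threshold, uncalled ones of either sign, 12 lost and 10 gained the call, and 2 reversed: Pygo2 with TPM to a log2 difference of 0.0640 (limma adjusted p = 0.5703) and Usp8 without ESC replicate 3 to -0.2105 (5.93e-04; up to 0.2411 without other samples). Many of these 29 genes, Notum and Col1a1 among them, passed the filter only through the group where they were high. Their kept calls are no support. Over all genes, 5500 were called: 2894 higher and 2606 lower. Without a filter these were 11454, 7245 and 4209, with more genes tested; with TPM 1585 were lower. Per exon length with its own filter, chosen after seeing the data, 8712 were called, 5154 of them higher. Leaving out 1 sample gave 4616 to 6884 calls. With TPM the mean Frizzled sums were 465 in ESCs and 1984 in NPCs. Per exon length, also chosen after seeing the data, the NPC sum was 194, the share of Fzd2, Fzd4 and Fzd7 75.1% and that of Fzd7 34%, and the NPC means of Fzd3 and Fzd6 were 11.5 and 4.33, which follows from their introns. Without a filter, leaving out 1 sample gave 6602 to 7761 higher and 3293 to 5567 lower, and reversed Usp8 likewise (adjusted p = 8.21e-04). With 50 kb on each side, 3 Frizzled genes met ESC NADs (33.5% of all genes did) and 3 met NPC NADs (27%); with scores at or above the median, 1 met NPC NADs (12.3%). With a replicate block 5214 genes and all 8 Frizzled genes were called; deviations of same-numbered samples correlated at 0.11, -0.08 and 0.03, so the numbers were not read as pairs. The cause of the other shifts was not tested. With 4 to 11 ESC reads, the fold of Fzd1 is imprecise.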
